A study of Homo sapiens with 19 samples.

Results

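The comparison described here is the knockdown of MCRS1 in cells whose EZH2 was inhibited with EPZ-6438. Its members are the libraries whose column names carry both the drug and the siRNA, namely EPZ-6438 with siMCRS1 (libraries A and B) and EPZ-6438 with the control siRNA NTG (libraries 1, 2 and 3). They are 5 of the 10 libraries of the drug experiment and 5 of the 19 RNA-seq libraries of the series. All are of HepG2, an established line from a human liver tumour that still expresses many secreted and metabolic genes of hepatocytes. The cells of all 5 libraries received 1 µM of the drug, starting 3 days ahead of the siRNA (50 nM), and RNA was taken 72 h after transfection. The drug is thus common to both groups, and only the siRNA differs. The libraries with the solvent DMSO in place of the drug (2 of NTG, 3 of siMCRS1) are used to set the same knockdown beside it. The labels name 1 reagent against MCRS1 and 1 control reagent, so effects of the siMCRS1 reagent other than on MCRS1 cannot be told apart from the knockdown. Nothing says that the replicates are separate cultures, so the p-values measure only the spread between these libraries.

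MCRS1 encodes a nuclear protein that is a subunit of the INO80 complex, an ATP-dependent remodeler that moves nucleosomes, and of the NSL complex, in which the acetyltransferase KAT8 acetylates histone H4. EZH2 is the catalytic subunit of Polycomb repressive complex 2 (PRC2), which methylates lysine 27 of histone H3 at silent genes, many of them developmental regulators. EPZ-6438 (tazemetostat) blocks the methyltransferase activity of EZH2 and leaves the protein in place. The comparison asks which transcripts differ when MCRS1 is depleted while that activity is inhibited. No chromatin mark was measured in these cultures, so inhibition of EZH2 is known only from the label.

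Values are normalized counts, the reads of a gene divided by 1 size factor per library. The 5 libraries held 29339336 to 47397233 reads, and a floor of 3 reads was worth 2.13 to 3.23 normalized counts. Changes are log2 fold changes of siMCRS1 against NTG on the log2(value + 1) scale, with a standard error (SE), and understate the change of genes near the floor. A gene is called when its adjusted p from limma, over all 14312 genes with a mean of at least 10 in the drug experiment, is under 0.05, and "rose" and "fell" are used only of called genes. Replicate libraries differed by more than counting noise, with a chi-square per degree of freedom of 30.2 to 71.3. All 12 markers of HepG2 and hepatocytes were expressed, with a summed level of 1085037 to 1189339 in NTG and 1221211 to 1366970 in siMCRS1. Summed markers of fibroblasts (8 genes) were 261 to 416 in NTG and 851 to 965 in siMCRS1, of which COL1A1 made 58.2 to 158 in NTG and 577 and 675 in siMCRS1. Of the leukocyte markers (8 genes, 43502 to 63887) nearly all was LYZ, and the endothelial markers (7 genes) summed to 206 to 300. The part of such cells in the results was not tested. In bulk RNA, fewer cells of a kind and less RNA per cell cannot be told apart.

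MCRS1 itself had 1533, 1355 and 1201 normalized counts in NTG 1, 2 and 3, and 126 and 90.5 in siMCRS1 A and B. The knockdown thus left 7.93% of the mean NTG level, with no overlap of the groups, and the log2 fold change was -3.66 (SE 0.23, adjusted p = 3.5e-06). With MCRS1 depleted, 3839 genes (26.8% of those tested) rose and 3847 (26.9%) fell, and the counts given for gene lists are read against these shares. Decreases were more often large. By at least 1 log2 unit 1954 genes fell and 1013 rose, by at least 2 units 512 fell and 164 rose, and by at least 3 units 122 fell and 27 rose. For 69.1% of tested genes both siMCRS1 libraries lay on the same side of all 3 NTG libraries. Scaling each library to the same total in place of the authors' size factors moved the median of all genes from 0.01 to -0.23 and gave 2296 genes higher and 5313 lower. List counts and medians given under equal totals are read against these values. The share of calls that were higher was then 30.2% in place of 49.9%, and changes within about 0.24 of 0 depend on this choice. Leaving out siMCRS1 B left 5016 of the 7686 calls (2475 higher, 2585 lower in all), leaving out any other library left 6472 to 6955, and no called gene changed sign.

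Leaving aside genes whose mean was under 50 normalized counts, the largest increases included genes of signal responses. RASD1, a Ras-related G protein first known as induced by dexamethasone, had 195, 293 and 231 normalized counts in NTG and 2604 and 3015 in siMCRS1, a log2 fold change of 3.56 (SE 0.17, adjusted p = 1.6e-06). THBS1, the matrix glycoprotein thrombospondin-1, had 3921, 5531 and 4279 against 36133 and 44355 (3.14, SE 0.15, adjusted p = 1.6e-06). EGR1, an immediate early transcription factor, had 344, 660 and 391 against 3169 and 5627 (3.24, SE 0.38, adjusted p = 6.6e-05). For all 3 genes the lowest siMCRS1 value was several times the highest NTG value. FOS (3.09), VGF (3.18), RGCC (3.26) and GLCCI1 (3.10) rose by similar amounts, and LBH (4.98) rose from 0 to 12.8 normalized counts in NTG to 54.4 and 357 in siMCRS1. PKD1P1 (5.98) and UGT1A3 (5.50) head the list, but each is at 0 in 2 of the 3 NTG libraries, PKD1P1 is a near copy of PKD1 and UGT1A3 shares exons with the other UGT1A genes, so their reads are uncertain. PKD1P1 also lost its call without siMCRS1 A (adjusted p = 0.054).

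The largest decreases among such genes included metabolic genes of the hepatocyte. PCK1, which commits carbon to glucose synthesis, had 724, 642 and 578 normalized counts in NTG and 50.4 and 21.3 in siMCRS1, a log2 fold change of -4.25 (SE 0.45, adjusted p = 3.4e-05). G6PC1 (listed as G6PC), the glucose-6-phosphatase of the last step of that pathway, had 123, 93.8 and 164 against 8.8 and 3.55 (-4.22, SE 0.87, adjusted p = 0.002). UNC93A, a membrane protein, had 1145, 1355 and 914 against 68 and 54.1 (-4.19, SE 0.37, adjusted p = 1.4e-05). In each case siMCRS1 left less than 10% of the lowest NTG value. ZBTB7C (-4.47), C1orf116 (-4.26), LDLRAD1 (-4.18), CPT1B (-4.14), LACTBL1 (-4.04) and the cadherin gene CDH16 (-4.02) fell to the same extent, to between 1.78 and 16 normalized counts in siMCRS1. SLX1B (-4.44) is among them too, but its copy SLX1A has nearly the same sequence and the split of reads between them is uncertain, and CPT1B is also part of a read-through transcript.

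**Figure D1:**
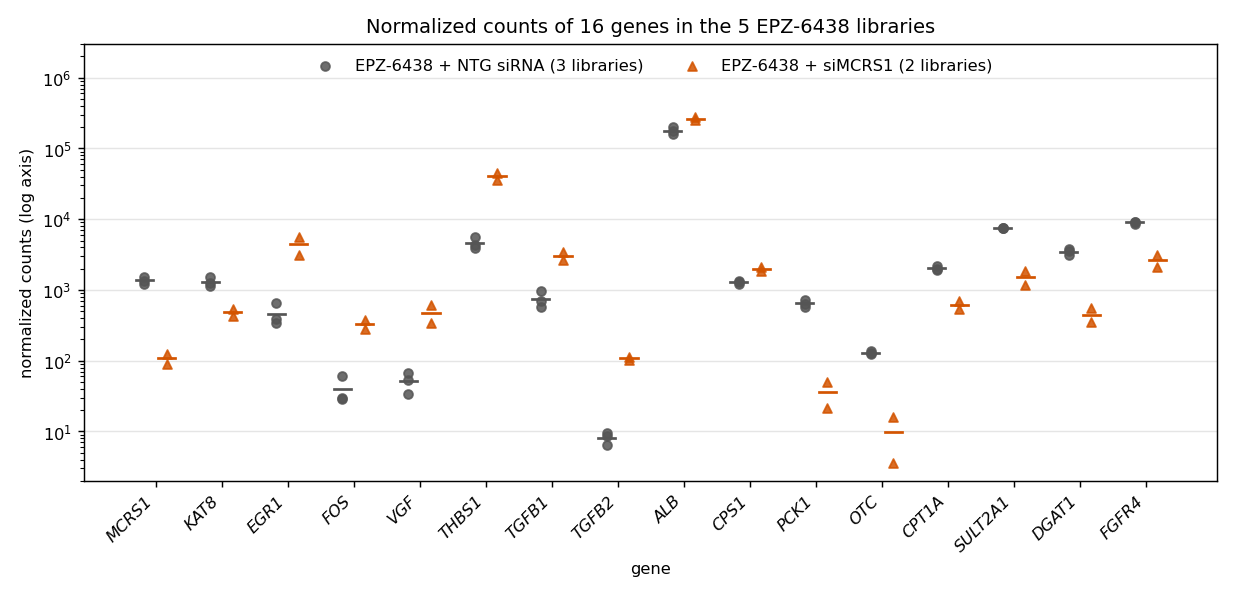
Normalized counts (log axis) of 16 genes in the 5 EPZ-6438 libraries, with NTG libraries as grey circles, siMCRS1 libraries as orange triangles and group means as bars. For each of these 16 genes the siMCRS1 libraries lie apart from the NTG libraries, below them for MCRS1, KAT8, PCK1, OTC, CPT1A, SULT2A1, DGAT1 and FGFR4 and above them for the others.

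The other subunits of the INO80 complex shifted by small amounts in both directions, and were called about as often as all tested genes. Of 16 tested subunits 4 (25%) rose and 5 (31%) fell, MCRS1 included, against 26.8% and 26.9% of all tested genes. Without siMCRS1 B 2 rose and 2 fell. Under equal totals 2 rose and 8 fell. INO80, the ATPase, had 2166, 2250 and 2197 normalized counts in NTG and 1767 and 1686 in siMCRS1 (-0.35, SE 0.10, adjusted p = 0.0097; 0.082 without siMCRS1 B). INO80B fell by 0.88 (SE 0.16, adjusted p = 0.00086), while INO80C rose by 0.83 (SE 0.13, adjusted p = 0.00047) and NFRKB by 0.78 (SE 0.11, adjusted p = 0.00017). YY1, the DNA-binding subunit, had 3646, 3578 and 3476 against 4406 and 4751 (0.36, SE 0.09, adjusted p = 0.0051; 0.067 without siMCRS1 B). No subunit other than MCRS1 moved by 1 log2 unit.

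Of 9 subunits of the NSL complex 2 rose and 3 fell, MCRS1 included (1 and 3 under equal totals). These are 22.2% and 33.3%, against 26.8% and 26.9% of all tested genes. KAT8, its acetyltransferase, had 1506, 1250 and 1132 normalized counts in NTG and 541 and 430 in siMCRS1 (-1.41, SE 0.18, adjusted p = 0.00011), and the groups did not overlap. HCFC1, a host cell factor that many promoters recruit, fell by 0.66 (SE 0.17, adjusted p = 0.0078). WDR5, shared with the H3K4 methyltransferases, rose by 0.47 (SE 0.11, adjusted p = 0.0039), though by 0.23 under equal totals, and KANSL2 rose by 0.67 (SE 0.14, adjusted p = 0.0025). The scaffold KANSL1 had 1503, 1876 and 1913 against 1846 and 2097 and did not pass the test (0.17, SE 0.13, adjusted p = 0.32).

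In PRC2, the complex that holds the drug's target, the core subunits EZH2, SUZ12 and EED did not pass the test and several accessory subunits rose. EZH2 had 1911, 1677 and 1736 normalized counts in NTG and 1711 and 1545 in siMCRS1 (-0.12, SE 0.11, adjusted p = 0.38), and its partners SUZ12 (0.07, SE 0.09, adjusted p = 0.53) and EED (0.08, SE 0.16, adjusted p = 0.71) did not pass the test either, with values that overlap between the groups. PHF1, a Polycomb-like protein that brings PRC2 to chromatin, had 267, 263 and 388 against 990 and 953 (1.69, SE 0.18, adjusted p = 3.8e-05). LCOR (1.60, SE 0.25, adjusted p = 0.00038) and MTF2, another Polycomb-like protein (1.10, SE 0.11, adjusted p = 2.5e-05), rose as well, and EZH1, the second methyltransferase of the complex, fell by 0.67 (SE 0.17, adjusted p = 0.006; 0.067 without siMCRS1 B). In total 5 of 13 PRC2 genes rose (3 without siMCRS1 A) and 1 fell (0 without siMCRS1 B). Under equal totals 3 rose and 4 fell, against 2296 and 5313 over all tested genes, and after quantile normalization 3 and 2 did so. None of 4 H3K27 demethylases and acetyltransferases was called (1 was called lower without NTG 1).

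**Figure D2:**
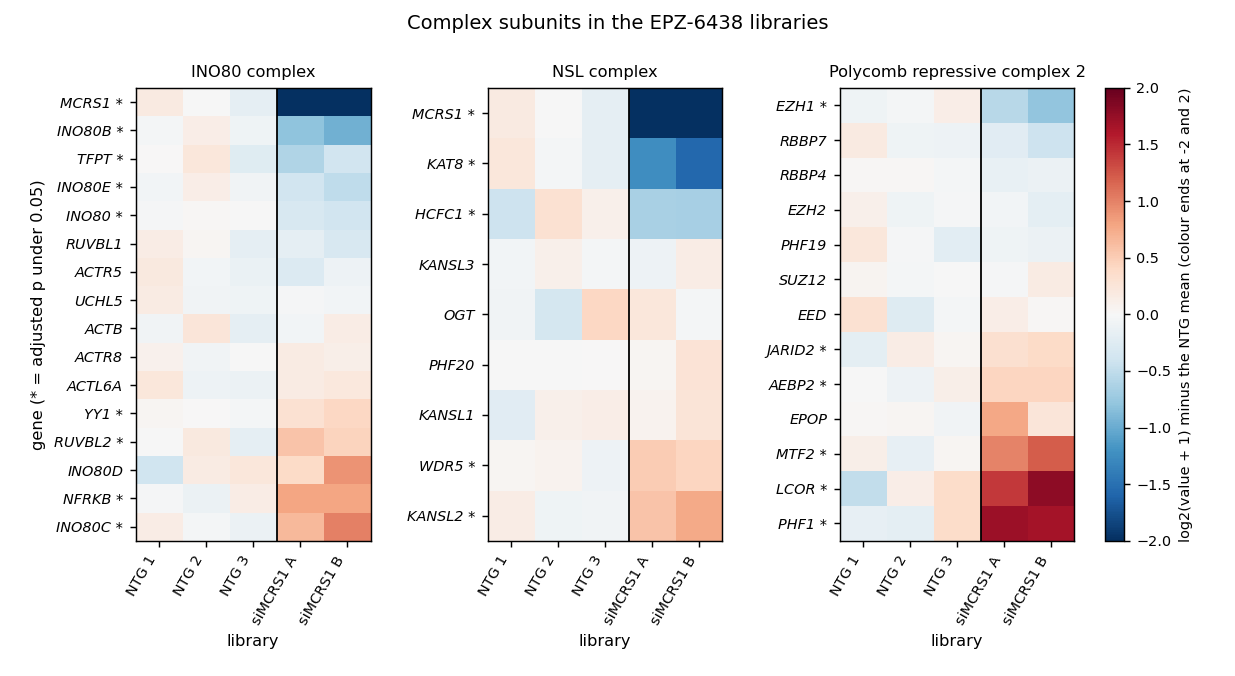
Level of each tested subunit of the INO80 complex, the NSL complex and PRC2 in the 5 EPZ-6438 libraries, as log2(value + 1) minus the mean of the 3 NTG libraries (blue lower, red higher, colour ends at -2 and 2), with called genes starred. MCRS1 and KAT8 are the darkest blue rows and PHF1 and LCOR the darkest red, while EZH2, SUZ12 and EED are pale in all 5 libraries.

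In Polycomb repressive complex 1, which binds and ubiquitinates chromatin, 9 of 24 genes rose and 5 fell (2 without siMCRS1 B), and 8 rose and 9 fell under equal totals. CBX7, a reader of the H3K27 methyl mark, had 64.6, 78.9 and 64.1 normalized counts in NTG and 8.8 and 7.1 in siMCRS1 (-2.97, SE 0.35, adjusted p = 6.2e-05). PCGF3 (1.27, SE 0.14, adjusted p = 4.4e-05) and BMI1 (0.94, SE 0.12, adjusted p = 0.00011), RING finger partners that define variants of the complex, rose. Developmental transcription factors, a class with many known PRC2 targets, were low or mixed. Of 54 listed genes 28 passed the filter on low values, and 9 rose (3 without siMCRS1 B) and 5 fell, or 5 and 6 under equal totals. The homeobox gene DLX3 had 9.7, 11.4 and 14.7 against 67.2 and 114 (2.79, SE 0.30, adjusted p = 3.7e-05), and GATA6, an endoderm factor, had 364, 394 and 292 against 682 and 918 (1.19, SE 0.17, adjusted p = 0.00025). PAX8 (-1.49, SE 0.21, adjusted p = 0.00022), MEIS1 (-1.27, SE 0.21, adjusted p = 0.0005) and GATA4 (-0.95, SE 0.16, adjusted p = 0.00065) fell. Of 39 HOX genes only 8 passed the filter, 1 of which rose (0 without NTG 1, NTG 3 or siMCRS1 B) and 3 of which fell (0 and 4 under equal totals).

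The clearest group to rise with siMCRS1 was the immediate early genes, transcription factors induced within minutes of growth or stress signals. Of 28 tested 25 rose, none fell, and the median log2 fold change was 1.41 against 0.01 over all genes. FOS had 29.1, 60.4 and 29.4 normalized counts in NTG and 282 and 372 in siMCRS1 (3.09, SE 0.43, adjusted p = 0.00017). JUN, its partner in the AP-1 dimer, had 1451, 1684 and 1481 against 5533 and 5744 (1.88, SE 0.12, adjusted p = 3.5e-06). ATF3, an AP-1 relative of the stress response, had 80.8, 171 and 124 against 594 and 973 (2.66, SE 0.30, adjusted p = 4.8e-05). All 3 were higher in both siMCRS1 libraries than in any NTG library. In 26 of the 28 genes the siMCRS1 libraries lay on 1 side of all NTG libraries, in either direction, against 69.1% of all tested genes. FOSL2 (1.93), JUND (1.07), IER3 (2.08) and KLF6 (1.55) rose too, and MYC rose by less (0.71, SE 0.08, adjusted p = 6.3e-05). NR4A2, MAFF and KLF2 did not pass the test.

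Feedback genes of the ERK pathway, which are transcribed when the kinase ERK is active and then restrain it, rose in the same libraries. Of 23 tested 20 rose and 1 fell (0 without siMCRS1 A), with a median of 1.33. DUSP1, a phosphatase of MAP kinases, had 442, 495 and 442 normalized counts in NTG and 1746 and 2286 in siMCRS1 (2.12, SE 0.18, adjusted p = 1.1e-05). SPRY4, a Sprouty inhibitor of receptor signalling, had 1804, 2397 and 1772 against 6831 and 7973 (1.90, SE 0.17, adjusted p = 1.6e-05). DUSP6, the phosphatase most specific for ERK, had 2729, 3146 and 2319 against 5549 and 6139 (1.11, SE 0.14, adjusted p = 8.3e-05). DUSP5 (1.96), DUSP10 (2.42), PHLDA1 (2.08) and ERRFI1 (1.93), an inhibitor of the EGF receptor, lay between these values or above them. The list also holds ligands of that receptor, of which HBEGF (1.86) and AREG (1.79) rose and TGFA fell by 0.61 (SE 0.16, adjusted p = 0.0069; 0.07 without siMCRS1 A).

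Targets of YAP and TEAD, the effectors of the Hippo pathway, were mostly higher. Of 26 tested 16 rose and 3 fell (1 without either siMCRS1 library), with a median of 0.84. CCN2 (listed as CTGF), a secreted matricellular protein, had 3306, 4582 and 3272 normalized counts in NTG and 9211 and 10862 in siMCRS1 (1.45, SE 0.20, adjusted p = 0.00017). F3, tissue factor, had 455, 434 and 364 against 1128 and 1333 (1.56, SE 0.16, adjusted p = 2.8e-05). YAP1 itself (0.97, SE 0.12, adjusted p = 9.2e-05) and the kinase gene LATS2, which restrains it (1.16, SE 0.15, adjusted p = 0.00011), both rose. ARHGEF17 fell by 1.02 (SE 0.15, adjusted p = 0.00023).

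Ligands of the TGF-beta list moved in both directions. TGFB2 went from 6.46, 8.53 and 9.46 normalized counts in NTG to 114 and 103 in siMCRS1 (3.60, SE 0.41, adjusted p = 5.5e-05). TGFB1 had 574, 970 and 709 against 2686 and 3440 (2.05, SE 0.20, adjusted p = 2.1e-05). The activin antagonist FST (2.02) and the ligand BMP2 (3.40, from at most 9.7 normalized counts in NTG) also rose, and of 22 tested genes 14 rose and 2 fell (1 without NTG 2 or siMCRS1 A, 0 without siMCRS1 B). The 2 that fell were INHBE, an activin subunit (-0.75, SE 0.24, adjusted p = 0.022; not called without NTG 2 or either siMCRS1 library), and SMAD6, an inhibitor of the pathway (-0.70, SE 0.19, adjusted p = 0.0099; not called without siMCRS1 B). SMAD7 and ID1, direct targets of TGF-beta and BMP signalling, did not pass the test, with log2 fold changes of 0.14 (SE 0.10, adjusted p = 0.28) and 0.14 (SE 0.10, adjusted p = 0.27), both -0.10 under equal totals, and ID1 was -0.26 after quantile normalization.

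In the IGF axis, 12 of 17 genes rose and 1 fell, with a median of 0.61. IGFBP1, a hepatic IGF binding protein, had 2946, 5322 and 4331 normalized counts in NTG and 21552 and 20633 in siMCRS1 (2.37, SE 0.30, adjusted p = 0.00011). IGF2, a fetal growth factor, had 13358, 19676 and 18887 against 41276 and 38028 (1.22, SE 0.24, adjusted p = 0.0016). IGFALS, which holds circulating IGF in a ternary complex, had 18.3, 37.7 and 31.5 against 5.6 and 4.44 (-2.27, SE 0.51, adjusted p = 0.0035). Genes of Wnt signalling, which is constitutively active in HepG2 through a mutant beta-catenin, moved in both directions. Of 21 tested 7 rose (4 without siMCRS1 B) and 3 fell, and the median of 0.18 became -0.06 under equal totals, where 5 rose and 7 fell. NOTUM, a secreted enzyme that inactivates Wnt ligands, had 18829, 16696 and 16253 against 5026 and 3240 (-2.09, SE 0.16, adjusted p = 7.6e-06), while AXIN2, a feedback inhibitor, had 3507, 3924 and 4395 against 7876 and 10193 (1.19, SE 0.18, adjusted p = 0.00028). LGR5 (0.17, SE 0.12, adjusted p = 0.26) did not pass the test.

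Matrix and cell shape genes rose more often than they fell. Of 22 epithelial and mesenchymal markers 13 rose and 3 fell, and the 13 include both mesenchymal genes and epithelial junction genes. FN1, fibronectin, had 133841, 233435 and 184495 normalized counts in NTG and 377567 and 499356 in siMCRS1 (1.28, SE 0.24, adjusted p = 0.0012), and SNAI1, a repressor of epithelial genes, had 81.9, 156 and 138 against 286 and 385 (1.45, SE 0.30, adjusted p = 0.0022). Desmoplakin, DSP (1.40, SE 0.19, adjusted p = 0.00015), and claudin-4, CLDN4 (1.34, SE 0.15, adjusted p = 4.5e-05), which belong to epithelial junctions, also rose. CDH1, E-cadherin, had 685, 2275 and 1053 against 381 and 740, which overlap, and its call (-1.15, SE 0.45, adjusted p = 0.049) was lost without NTG 2 (0.15), NTG 3 (0.071) or siMCRS1 A (0.33).

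Of 34 collagens, laminins and integrins 14 rose and 5 fell (3 without either siMCRS1 library), and 11 rose and 7 fell under equal totals. COL1A1, the main fibrillar collagen, had 58.2, 158 and 59.9 normalized counts in NTG and 577 and 675 in siMCRS1 (2.91, SE 0.43, adjusted p = 0.00027). ITGA2, a collagen receptor, had 8364, 12271 and 10635 against 31956 and 48117 (1.93, SE 0.24, adjusted p = 9.2e-05). ITGA3, a laminin receptor, fell from 668, 671 and 665 to 282 and 106 (-1.94, SE 0.35, adjusted p = 0.00093), and LAMB2, a laminin chain, fell by 1.64 (SE 0.21, adjusted p = 9.8e-05). COL1A1 is also 1 of the 8 fibroblast markers named above, of which 4 passed the filter. Of these 2 rose, COL1A1 included (1 without NTG 1, NTG 3 or siMCRS1 B). In the same list DCN, LUM, THY1 and COL1A2 had at most 10.7 normalized counts in any of the 5 libraries. The part of such cells in the rise of COL1A1 was not tested. VGF, a neuropeptide precursor, had 33.4, 66.1 and 53.6 against 338 and 607 (3.18, SE 0.36, adjusted p = 4.8e-05), but the other neuroendocrine genes did not follow it. Of 28 listed only 11 passed the filter, 2 rose and 3 fell (1 without NTG 3), and the second to rise was REST, the repressor of neuronal genes (0.99, SE 0.15, adjusted p = 0.00032). Among oncofetal liver genes 10 of 17 rose and none fell (1 without siMCRS1 A), with a median of 0.76.

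Promoters of a few of these genes are printed because they hold words that AP-1, CREB or EGR proteins can bind, and the promoter of FADS1 because the same word stands before a gene that fell. RefSeq promoters (GRCh38.p14, 250 bases before the start of transcription and 50 after it) were available for 10708 of the tested genes (74.8%). They were searched on both strands for the cyclic AMP response element TGACGTCA (CRE), the AP-1 word TGANTCA, the EGR word GCGTGGGCG and the YY1 word GCCATNTTG. Capitals mark the word, and a match is a description of the letters and not of a bound site. VGF lies at chr7:101165520-101165819, DUSP1 at chr5:172771146-172771445, F3 at chr1:94541710-94542009 and FADS1 at chr11:61816954-61817253, all on the minus strand, and THBS1 at chr15:39580829-39581128 on the plus strand.
VGF: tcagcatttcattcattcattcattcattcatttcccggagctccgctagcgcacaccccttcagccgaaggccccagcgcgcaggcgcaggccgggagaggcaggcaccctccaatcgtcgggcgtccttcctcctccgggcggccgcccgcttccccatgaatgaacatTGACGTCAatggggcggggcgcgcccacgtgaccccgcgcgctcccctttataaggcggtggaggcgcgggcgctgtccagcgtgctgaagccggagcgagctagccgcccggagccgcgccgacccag
DUSP1: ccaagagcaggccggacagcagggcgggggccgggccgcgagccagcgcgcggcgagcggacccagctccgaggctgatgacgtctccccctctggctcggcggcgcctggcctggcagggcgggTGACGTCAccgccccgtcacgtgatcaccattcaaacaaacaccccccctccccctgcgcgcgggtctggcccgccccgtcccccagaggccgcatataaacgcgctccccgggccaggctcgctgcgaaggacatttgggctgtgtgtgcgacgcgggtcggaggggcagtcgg
F3: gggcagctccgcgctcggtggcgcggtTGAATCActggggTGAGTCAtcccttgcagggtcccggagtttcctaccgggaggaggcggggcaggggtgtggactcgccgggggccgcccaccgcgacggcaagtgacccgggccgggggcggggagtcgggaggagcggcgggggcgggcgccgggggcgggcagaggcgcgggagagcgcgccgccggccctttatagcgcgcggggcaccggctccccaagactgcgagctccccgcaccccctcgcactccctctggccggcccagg
THBS1: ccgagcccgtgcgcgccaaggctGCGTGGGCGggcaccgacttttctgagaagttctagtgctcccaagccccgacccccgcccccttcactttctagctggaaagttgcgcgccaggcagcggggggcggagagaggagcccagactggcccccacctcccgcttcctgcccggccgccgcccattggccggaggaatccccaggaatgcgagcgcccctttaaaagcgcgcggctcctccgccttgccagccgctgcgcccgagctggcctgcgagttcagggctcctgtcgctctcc
FADS1: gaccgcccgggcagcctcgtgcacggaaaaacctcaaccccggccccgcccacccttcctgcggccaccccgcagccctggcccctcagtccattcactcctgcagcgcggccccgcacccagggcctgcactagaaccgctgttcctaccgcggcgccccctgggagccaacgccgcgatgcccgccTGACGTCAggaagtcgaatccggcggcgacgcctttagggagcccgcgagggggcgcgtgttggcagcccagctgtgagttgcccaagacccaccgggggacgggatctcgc

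Over all called genes the words separated rises from decreases little, and none of these shares was tested. The AP-1 word was in 5.07% of promoters of genes that rose (156 of 3076), 4.68% of those that fell (140 of 2994) and 4.61% of all. For genes that rose by at least 1 log2 unit its share was 7.06% (54 of 765), and for those that fell by as much 5.1% (74 of 1451). The CRE stood in 3.41% of promoters of genes that rose and 2.71% of those that fell, against 3.2% of all. It differed more at the cut of 1 log2 unit, with 4.18% of rises (32 of 765) and 2.14% of decreases (31 of 1451). The YY1 word stood in 5.79% and 4.21%, against 5.14% of all, but in only 2.61% and 2.62% of genes that moved by at least 1 log2 unit up or down. The EGR word was rarest, at 1.29% of all promoters, and at that cut it was in 1.7% of rises and 1.03% of decreases. Among 18 ERK feedback promoters 3 held the CRE (EPHA2, AREG and DUSP1), and among 23 promoters of the bile acid list none held any of the 4 words. FADS1, a fatty acid desaturase, had 5835, 6910 and 5817 normalized counts in NTG and 3269 and 2199 in siMCRS1 (-1.20, SE 0.17, adjusted p = 0.00023), so the same word preceded a gene that fell.

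**Figure D3:**
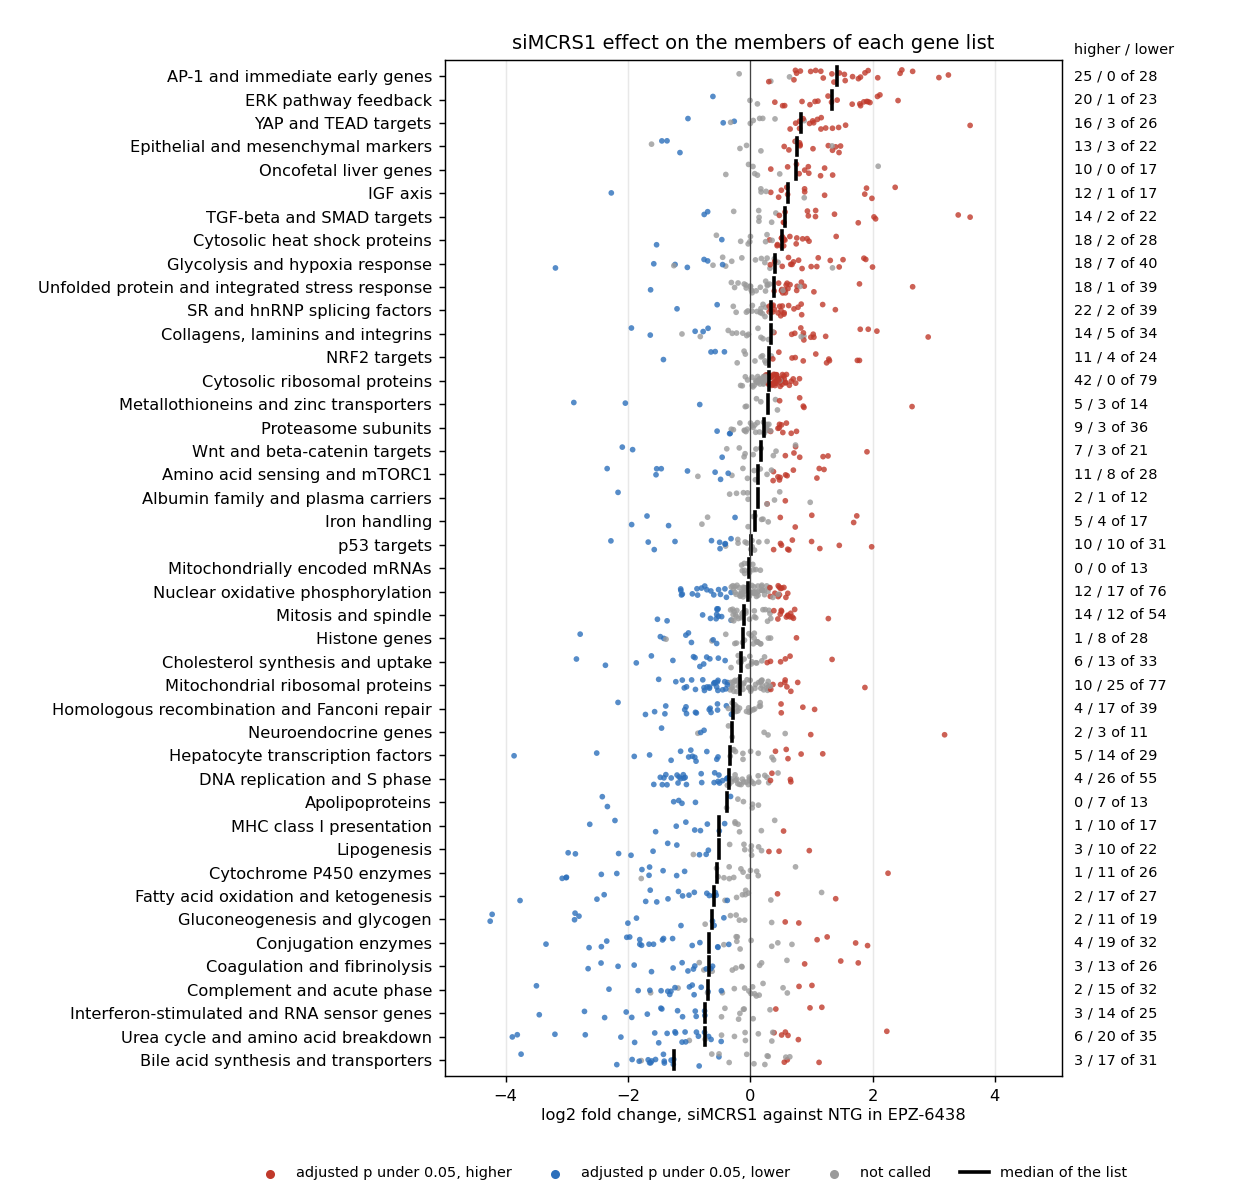
Log2 fold change of siMCRS1 against NTG in EPZ-6438 for every tested member of 43 gene lists (1 point a gene; red higher and blue lower with an adjusted p under 0.05, grey not called), ordered by the median of the list (black bar), with counts of called genes at the right. Immediate early and ERK feedback genes stand at the top with medians of 1.41 and 1.33, and bile acid genes at the bottom with -1.25.

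On the side of the decreases stood most gene lists of hepatocyte function. Transcription factors of the hepatocyte fell in 14 of 29 cases and rose in 5 (3 without NTG 1, siMCRS1 A or siMCRS1 B), or 16 and 3 under equal totals. HNF4A, a central regulator of hepatocyte genes, had 7487, 9709 and 8267 normalized counts in NTG and 6367 and 5232 in siMCRS1 (-0.55, SE 0.16, adjusted p = 0.015), a call lost without NTG 2 (0.052) or siMCRS1 B (0.15). CEBPA, which sustains metabolic genes of the liver, had 3733, 3666 and 3984 against 2374 and 1769 (-0.89, SE 0.17, adjusted p = 0.0012). Among nuclear receptors the xenobiotic receptor NR1I3 fell by 2.51 (SE 0.49, adjusted p = 0.0015), and the bile acid receptor NR1H4 had 2702, 2827 and 3119 against 1335 and 1029 (-1.30, SE 0.15, adjusted p = 6.1e-05). The pioneer factors FOXA1 (-0.12, SE 0.15, adjusted p = 0.54) and FOXA2 (0.38, SE 0.16, adjusted p = 0.07) did not pass the test, though FOXA2 was called higher without NTG 2 (0.52, adjusted p = 0.017).

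Bile acid synthesis and transport had the lowest median of the lists, -1.25, with 17 of 31 genes lower and 3 higher (1 without siMCRS1 B). SLC22A7, an organic anion carrier, fell from 388, 214 and 413 normalized counts to 33.6 and 16 (-3.75, SE 0.51, adjusted p = 0.00015). CYP8B1, which sets the ratio of the bile acids made, had 121, 197 and 165 against 48 and 24 (-2.18, SE 0.41, adjusted p = 0.0011). AKR1D1, the bile acid reductase, had 1555, 1701 and 1246 against 404 and 375 (-1.93, SE 0.32, adjusted p = 0.00047). FGFR4, the receptor through which FGF19 represses bile acid synthesis, had 9246, 9279 and 8664 against 3094 and 2134 (-1.82, SE 0.17, adjusted p = 1.8e-05), and the repressor NR0B2 fell by 1.65 (SE 0.25, adjusted p = 0.00028). AMACR, an enzyme of bile acid synthesis, rose by 0.56 (SE 0.15, adjusted p = 0.0088; not called without siMCRS1 B). CYP7A1, the first and rate-limiting enzyme, was low throughout, at 57.1, 16.3 and 32.6 against 18.4 and 3.55, and did not pass the test (-1.78, SE 0.79, adjusted p = 0.078), though it was called lower without siMCRS1 A (adjusted p = 0.026). ABCC4, an export pump of the basolateral side, rose from 698, 799 and 896 to 1673 and 1793 (1.12, SE 0.14, adjusted p = 7.9e-05).

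Gluconeogenesis and glycogen genes fell in 11 of 19 cases and rose in 2 (1 without siMCRS1 B). Besides PCK1 and G6PC1, the mitochondrial isoenzyme PCK2 had 5588, 6160 and 5832 normalized counts in NTG and 1077 and 653 in siMCRS1 (-2.80, SE 0.19, adjusted p = 5.2e-06). SLC37A4, which carries glucose 6-phosphate to the phosphatase, had 1693, 1216 and 1359 against 288 and 127 (-2.87, SE 0.34, adjusted p = 7e-05), and the glucokinase regulator GCKR had 674, 617 and 681 against 108 and 73.7 (-2.87, SE 0.23, adjusted p = 1e-05). UGP2, which makes the UDP-glucose of glycogen synthesis, rose from 2984, 3045 and 2971 to 5070 and 5335 (0.79, SE 0.10, adjusted p = 8e-05).

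Urea cycle and amino acid breakdown genes fell in 20 of 35 cases and rose in 6 (3 without NTG 3), or 23 and 3 under equal totals. The first steps of the urea cycle moved apart. CPS1, which makes carbamoyl phosphate, rose from 1319, 1229 and 1303 normalized counts to 2082 and 1860 (0.62, SE 0.10, adjusted p = 0.00059). OTC, which uses it next, fell from 130, 136 and 123 to 16 and 3.55 (-3.89, SE 0.64, adjusted p = 0.0005), and the later enzymes ASS1 (-0.85, SE 0.16, adjusted p = 0.001) and ASL (-1.89, SE 0.23, adjusted p = 7.5e-05) fell too. ARG2, the mitochondrial arginase, rose from 669, 857 and 763 to 2951 and 4324 (2.23, SE 0.18, adjusted p = 1.1e-05). Among the genes of amino acid breakdown, PRODH2 fell from 967, 751 and 839 to 96.8 and 36.4 (-3.81, SE 0.41, adjusted p = 3.8e-05) and BHMT, of methionine metabolism, from 2045, 1790 and 1905 to 406 and 212 (-2.70, SE 0.26, adjusted p = 2.2e-05).

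Lipid genes fell more often than they rose, for synthesis and for oxidation. Lipogenesis genes fell in 10 of 22 cases and rose in 3 (1 without siMCRS1 B), or 13 and 1 under equal totals. DGAT1, which completes triglycerides, had 3090, 3759 and 3573 normalized counts in NTG and 550 and 349 in siMCRS1 (-2.98, SE 0.21, adjusted p = 5.9e-06), and MLXIPL, the carbohydrate-responsive factor ChREBP, had 1693, 1800 and 2595 against 401 and 186 (-2.86, SE 0.32, adjusted p = 5.1e-05). FASN, fatty acid synthase, fell by 0.72 (SE 0.21, adjusted p = 0.015), a call lost without NTG 2 (0.055), NTG 3 (0.052) or siMCRS1 B (0.16). Fatty acid oxidation and ketogenesis genes fell in 17 of 27 cases and rose in 2. CPT1A, which admits fatty acids to mitochondria, went from 2150, 1999 and 1923 to 706 and 540 (-1.71, SE 0.14, adjusted p = 1.2e-05). PLIN2, a lipid droplet coat protein (0.97, SE 0.18, adjusted p = 0.0011), and ACSL1, which activates long fatty acids (1.40, SE 0.17, adjusted p = 8e-05), rose.

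Cholesterol genes fell more often than they rose. Of 33 tested 13 fell and 6 rose (2 without siMCRS1 A, 3 without siMCRS1 B), or 18 and 2 under equal totals. SOAT2, which esterifies cholesterol, had 1411, 1559 and 1201 normalized counts in NTG and 235 and 156 in siMCRS1 (-2.84, SE 0.30, adjusted p = 3.6e-05), and LCAT, the plasma esterifying enzyme, fell by 1.86 (SE 0.26, adjusted p = 0.00017).

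Enzymes that handle drugs and hormones fell more often than they rose. Of 26 cytochrome P450 genes 11 fell and 1 rose. CYP19A1, aromatase, had 1001, 1044 and 1075 normalized counts in NTG and 136 and 110 in siMCRS1 (-3.08, SE 0.23, adjusted p = 7.6e-06). The gene that rose was CYP24A1, which inactivates vitamin D, from 1204, 2064 and 1871 to 6433 and 9850 (2.25, SE 0.28, adjusted p = 9.2e-05). CYP3A4, the main drug-metabolizing P450 of liver, was low in these cells, at 11.9, 20.6 and 15.8 against 16.8 and 9.76 (-0.27, SE 0.46, adjusted p = 0.65). Of 32 conjugation enzymes 19 fell and 4 rose (2 without NTG 2 or NTG 3). SULT2A1, a steroid sulfotransferase, had 7614, 7557 and 7625 against 1865 and 1193 (-2.35, SE 0.19, adjusted p = 1.1e-05), and GSTA2, a glutathione transferase, had 1362, 836 and 1628 against 211 and 68.3 (-3.34, SE 0.47, adjusted p = 0.00018). All 4 that rose are UGT2B glucuronosyltransferases, among them UGT2B10 (1.72, SE 0.34, adjusted p = 0.0016) and UGT2B7 (1.09, SE 0.21, adjusted p = 0.0014). The GSTA genes and the UGT2B genes are close copies of each other, and how their reads were split is uncertain.

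Secreted plasma proteins did not fall uniformly. ALB, albumin, had 199543, 174557 and 162036 normalized counts in NTG and 252636 and 277633 in siMCRS1 (0.57, SE 0.19, adjusted p = 0.027), and this call was lost without NTG 2 (0.065), NTG 3 (0.079), siMCRS1 A (0.064) or siMCRS1 B (0.15). AFP (0.48, SE 0.29, adjusted p = 0.18), TF (-0.04, SE 0.24, adjusted p = 0.91) and TTR (-0.23, SE 0.29, adjusted p = 0.54) overlapped between the groups and did not pass the test. Of 12 tested carriers 2 rose (1 without any NTG library, 0 without either siMCRS1 library) and 1 fell (2 without siMCRS1 A), or 0 and 2 under equal totals. SERPINA6, which fell, is the cortisol carrier and went from 6764, 8280 and 6748 to 1906 and 1366 (-2.16, SE 0.26, adjusted p = 6.6e-05). Among 13 apolipoproteins none rose and 7 fell (4 without NTG 2, 2 without siMCRS1 B). APOC3, an inhibitor of triglyceride clearance, had 2448, 2830 and 3054 against 623 and 479 (-2.34, SE 0.31, adjusted p = 0.00012), whereas the abundant APOA1 (0.03, SE 0.27, adjusted p = 0.93) and APOB (0.04, SE 0.21, adjusted p = 0.9) did not pass the test.

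Coagulation genes fell in 13 of 26 cases (8 without siMCRS1 B) and rose in 3. F7, which starts coagulation with tissue factor, had 232, 321 and 280 normalized counts in NTG and 60.8 and 30.2 in siMCRS1 (-2.65, SE 0.29, adjusted p = 4.5e-05), and F2, prothrombin, had 7790, 7737 and 6636 against 4396 and 3399 (-0.93, SE 0.18, adjusted p = 0.0012). The anticoagulant PROC fell by 1.62 (SE 0.17, adjusted p = 2.9e-05). The plasminogen activators PLAT (1.48, SE 0.25, adjusted p = 0.00056) and PLAU (0.89, SE 0.26, adjusted p = 0.014; 0.18 without siMCRS1 A) were among the 3 that rose. The fibrinogen genes FGA (0.15, SE 0.30, adjusted p = 0.7), FGB (0.60, SE 0.32, adjusted p = 0.14) and FGG (0.18, SE 0.28, adjusted p = 0.61) did not pass the test. Complement and acute phase genes fell in 15 of 32 cases (8 without siMCRS1 B) and rose in 2 (4 without NTG 2, 1 without siMCRS1 B). SAA4, a constitutive serum amyloid A protein, had 1178, 1474 and 1475 against 483 and 396 (-1.64, SE 0.19, adjusted p = 6.3e-05).

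Interferon-stimulated and RNA sensor genes fell more often than they rose. Of 25 tested 14 fell and 3 rose (17 and 1 under equal totals), with a median of -0.75. TLR3, the endosomal sensor of double-stranded RNA, went from 60.3, 36.2 and 76.7 normalized counts to 4.8 and 3.55 (-3.45, SE 0.49, adjusted p = 0.0002). STAT2, part of the factor that drives interferon-stimulated genes, had 977, 1127 and 1041 against 322 and 230 (-1.94, SE 0.20, adjusted p = 3.2e-05). ISG15, a ubiquitin-like protein, did not pass the test (-0.10, SE 0.16, adjusted p = 0.63). Genes of MHC class I presentation fell in 10 of 17 cases and rose in 1. NLRC5, the factor that activates them, had 182, 165 and 203 against 67.2 and 56.8 (-1.55, SE 0.19, adjusted p = 9.2e-05), and the immunoproteasome subunit PSMB9 had 196, 195 and 179 against 50.4 and 32 (-2.21, SE 0.27, adjusted p = 8e-05). B2M, the light chain of class I, was the gene that rose (0.54, SE 0.12, adjusted p = 0.0024).

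Of 28 cytosolic heat shock genes 18 rose and 2 fell (1 without NTG 1, NTG 2 or either siMCRS1 library), and under equal totals 10 rose and 3 fell. HSP90AA1 had 72436, 67582 and 59905 normalized counts in NTG and 129774 and 128882 in siMCRS1 (0.96, SE 0.15, adjusted p = 0.00036), while the regulator HSF1 fell by 0.47 (SE 0.16, adjusted p = 0.031), a call lost without NTG 1 (0.079), NTG 2 (0.093), siMCRS1 A (0.085) or siMCRS1 B (0.14). In the unfolded protein and integrated stress response 18 of 39 rose (11 without siMCRS1 B) and 1 fell (2 without NTG 3), or 13 and 6 under equal totals. SLC7A11, the cystine importer, had 3590, 4719 and 6252 against 13566 and 19621 (1.79, SE 0.33, adjusted p = 0.001). ATF4 (0.25, SE 0.11, adjusted p = 0.078; called higher without NTG 2, 0.016) and DDIT3 (0.28, SE 0.16, adjusted p = 0.17), the main transcription factors of that response, did not pass the test. Of 24 NRF2 targets 11 rose and 4 fell (1 without siMCRS1 B). Both subunits of the enzyme that starts glutathione synthesis rose, GCLC from 4946, 4312 and 4983 to 15753 and 16143 (1.75, SE 0.14, adjusted p = 8.5e-06) and GCLM by 1.29 (SE 0.18, adjusted p = 0.00015), whereas the standard NRF2 targets NQO1 (0.18, SE 0.14, adjusted p = 0.31) and HMOX1 (-0.10, SE 0.22, adjusted p = 0.72) did not pass the test, though HMOX1 was called lower without NTG 1 (-0.37, adjusted p = 0.042).

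Glycolysis and hypoxia genes rose in 18 of 40 cases and fell in 7 (3 without siMCRS1 B), or 14 and 11 under equal totals. HIF1A, the hypoxia factor, had 6224, 6845 and 6959 normalized counts in NTG and 13813 and 15026 in siMCRS1 (1.11, SE 0.11, adjusted p = 2.6e-05). SLC2A3, a high-affinity glucose transporter, had 7975, 11492 and 8468 against 29847 and 38815 (1.89, SE 0.18, adjusted p = 1.7e-05), and hexokinase HK2 had 1928, 3248 and 2295 against 6046 and 8011 (1.52, SE 0.19, adjusted p = 9.1e-05). The isoforms of liver glycolysis went the other way, with PKLR, liver pyruvate kinase, at 698, 848 and 682 against 101 and 63.9 (-3.19, SE 0.26, adjusted p = 1e-05) and PFKL, liver phosphofructokinase, at 3731, 4076 and 3342 against 1526 and 1007 (-1.58, SE 0.24, adjusted p = 0.00027).

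Genes of DNA replication and S phase fell in 26 of 55 cases (17 without siMCRS1 B) and rose in 4. E2F1, a factor that drives entry into S phase, had 2352, 1910 and 1619 normalized counts in NTG and 872 and 606 in siMCRS1 (-1.41, SE 0.22, adjusted p = 0.00041). LIG1, the replicative ligase, had 1808, 1777 and 1578 against 785 and 510 (-1.44, SE 0.21, adjusted p = 0.00027). MCM3, of the replicative helicase, rose from 8408, 7862 and 6864 to 12231 and 12107 (0.66, SE 0.13, adjusted p = 0.0013), and PCNA did not pass the test (-0.20, SE 0.15, adjusted p = 0.26). Of 54 mitosis and spindle genes 14 rose (9 without siMCRS1 B) and 12 fell (4 without siMCRS1 B). Under equal totals 9 of them rose and 26 fell, and after quantile normalization 9 rose and 20 fell. The proliferation marker MKI67 had 8228, 10754 and 10403 against 8935 and 8762 (-0.14, SE 0.12, adjusted p = 0.36), and was called lower without NTG 1 (-0.26, adjusted p = 0.038), under equal totals and after quantile normalization. Genes of homologous recombination and Fanconi repair fell in 17 of 39 cases and rose in 4 (2 without siMCRS1 B), or 27 and 2 under equal totals. FANCD2, which marks stalled forks, had 2161, 1889 and 1939 against 687 and 535 (-1.71, SE 0.15, adjusted p = 1.4e-05), and BRCA1 had 2318, 2496 and 2499 against 970 and 898 (-1.38, SE 0.13, adjusted p = 1.6e-05). Of 28 histone genes 1 rose (3 without NTG 1) and 8 fell.

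The p53 list had as many rises as decreases, 10 and 10 of 31 (6 lower without siMCRS1 A), with a median of 0.01 that became -0.23 under equal totals, where 9 rose and 15 fell. GDF15, a secreted stress cytokine, had 6113, 8215 and 5500 normalized counts in NTG and 20703 and 32116 in siMCRS1 (1.99, SE 0.24, adjusted p = 7.4e-05), and FDXR, a mitochondrial reductase, had 3633, 3536 and 3130 against 873 and 569 (-2.28, SE 0.19, adjusted p = 1.1e-05). CDKN1A, the inhibitor p21, had 5879, 8335 and 5884 against 6897 and 9266 and did not pass the test (0.28, SE 0.19, adjusted p = 0.25), nor did MDM2 (0.03, SE 0.15, adjusted p = 0.89).

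Housekeeping lists shifted by small amounts, and the direction depends on the scaling for cytosolic ribosomal proteins and proteasome subunits. Cytosolic ribosomal protein genes rose in 42 of 79 cases and none fell, with a median of 0.30, but under equal totals 4 rose and 2 fell with a median of 0.06, and after quantile normalization 1 rose and 9 fell. Without NTG 2, NTG 3, siMCRS1 A or siMCRS1 B, 27, 26, 26 and 11 of them rose. Splicing factors of the SR and hnRNP families rose in 22 of 39 cases (14 without siMCRS1 A, 13 without siMCRS1 B) and fell in 2, with a median of 0.34 that became 0.10 under equal totals, where 11 rose and 4 fell (8 and 6 after quantile normalization). Mitochondrial ribosomal protein genes fell in 25 of 77 cases (14 without siMCRS1 B) and rose in 10 (17 without NTG 1). Under equal totals 40 fell and 5 rose, and after quantile normalization 29 and 9 did so. Their median was -0.18, with -0.41 under equal totals and -0.23 after quantile normalization. MRPL38 had 2596, 2521 and 1963 normalized counts against 965 and 711 (adjusted p = 0.00022), and MRPS6, whose locus also holds SLC5A3 so that its reads are uncertain, rose by 1.87 (SE 0.25, adjusted p = 0.00014). Of 76 nuclear genes of oxidative phosphorylation 12 rose (7 without siMCRS1 B) and 17 fell, or 2 and 34 under equal totals. After quantile normalization 4 of them rose and 27 fell. None of the 13 mRNAs encoded in mitochondria was called, and their share of all reads was 6.28 to 8.66% in NTG and 5.90 to 6.63% in siMCRS1. Of 36 proteasome subunits 9 rose (16 without NTG 1, 5 without siMCRS1 B) and 3 fell (0 without siMCRS1 B), whereas under equal totals 4 rose and 10 fell and after quantile normalization 2 rose and 11 fell.

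The same knockdown was made in DMSO, without the drug, and shares no library with the comparison in EPZ-6438. In DMSO 3307 genes (23.1%) rose and 3523 (24.6%) fell. Of the 7686 genes called in EPZ-6438, 6129 (79.7%) were called in the same direction in DMSO, which is 89.7% of the calls made there, and 99.2% had the same sign. Across the tested genes, which are not independent replicates, the log2 fold changes in EPZ-6438 and in DMSO had a Pearson correlation of 0.89 and a Spearman correlation of 0.90, with no p-value given. An orthogonal line of the EPZ-6438 effects on the DMSO effects had a slope of 1.14, steeper than that of equal effects, and this was not tested. MCRS1 itself changed by -3.66 in each. The difference between the effects was tested for every gene with limma's interaction term. No gene passed, and the smallest adjusted p was 0.35. At an unadjusted p under 0.05 there were 336 genes (2.35%). Where no gene differed, such a threshold would pass a share near 0.05, so the share seen was lower, and the reason was not tested. In edgeR none was called either (344 at an unadjusted p under 0.05), and DESeq2 called 5 (334). Leaving out 1 library gave 3 genes (without siMCRS1 1 of DMSO), 2 (without NTG 1 of EPZ-6438), 1 (without siMCRS1 3 of DMSO) or 0. The median absolute difference was 0.16, the median SE of a difference was 0.23, and 425 genes differed by at least 1 log2 unit, so that differences of that size are not shown to be absent.

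**Figure D4:**
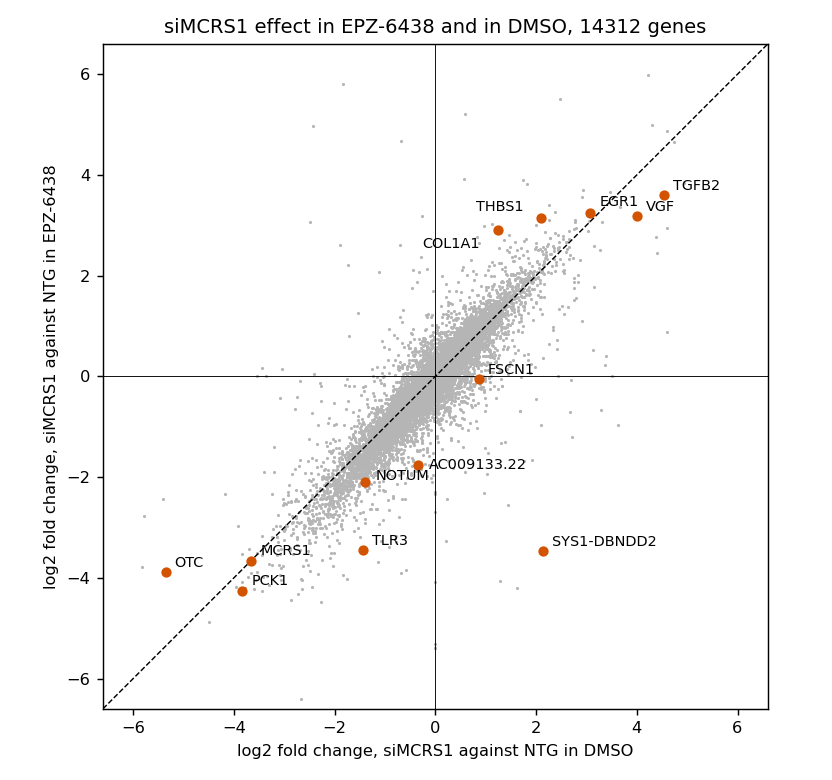
Log2 fold change of siMCRS1 against NTG in EPZ-6438 (vertical axis) and in DMSO (horizontal axis) for the 14312 tested genes, with named genes in orange and equal effects on the dashed line. Most genes lie near that line, as do MCRS1, EGR1 and PCK1, while THBS1 and COL1A1 lie above it and VGF, FSCN1, TLR3 and AC009133.22 below it.

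The genes with the lowest unadjusted p for that difference are given as values, since none passed after adjustment (all adjusted p at least 0.35). THBS1 rose by 3.14 in EPZ-6438 and by 2.09 in DMSO, a difference of 1.06 (SE 0.22). In DMSO it had 7269 and 7589 normalized counts in NTG and 29568, 35606 and 29902 in siMCRS1, so its NTG level was higher there than with the drug. FSCN1, which bundles actin, had 7488, 8170 and 8220 in NTG with the drug and 7598 and 7749 in siMCRS1 (-0.05), and rose by 0.86 in DMSO from 2711 and 3330 to 4874, 6551 and 5115 (difference -0.91, SE 0.19). AC009133.22 had 1222, 1618 and 1369 against 416 and 404 with the drug (-1.76) and a change of -0.34 in DMSO (difference -1.42, SE 0.20, the lowest adjusted p of limma at 0.35). SYS1-DBNDD2, a read-through of neighbouring genes whose reads are uncertain, was the only gene called in opposite directions, at -3.47 with the drug and 2.14 in DMSO, and all its values were under 30 normalized counts. RP11-298I3.5 was at 0 in all 3 NTG libraries with the drug and at 29.6 and 31.1 in siMCRS1. Among the groups above, COL1A1 rose by 2.91 with the drug and 1.25 in DMSO, and TLR3 fell by 3.45 and 1.43, but these differences did not pass the test either.

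The gene lists gave like counts in the drug and in the solvent, set side by side here with no test of the lists. Immediate early genes rose in 25 of 28 cases in EPZ-6438 and 23 in DMSO, ERK feedback genes in 20 and 19 of 23, bile acid genes fell in 17 and 17 of 31 and gluconeogenesis genes in 11 and 12 of 19. Proliferation lists were less alike. Replication genes rose in 4 and fell in 26 of 55 cases with the drug, and 0 and 37 in DMSO. Mitosis genes rose in 14 and fell in 12 of 54 with the drug, and 6 and 21 in DMSO, with a median gene-wise difference of 0.21 against 0.01 over all genes. Cytosolic heat shock genes rose in 18 of 28 cases with the drug and 10 in DMSO, with a median difference of 0.17. No single gene of these lists passed the test of the difference, and the number of NTG and siMCRS1 libraries is reversed between the drug (3 and 2) and DMSO (2 and 3).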

How the data were processed

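RNA-seq of HepG2 cells was analysed from the drug experiment's table of normalized counts (34825 genes, 10 libraries), of which the 5 EPZ-6438 libraries carry the comparison. The submitters' notes name kallisto, DESeq2 and GRCh38 without versions or roles. The values are deposited as a signal: gene counts that the authors divided by 1 size factor per library. Whole reads were recovered by dividing the values by the library's step, within a tolerance of 0.001, and rounding. They served for depth, for TMM factors, and for edgeR and DESeq2 as alternatives.

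Genes with a mean of at least 10 over the 10 libraries (14312) were tested on log2(value + 1) with limma 3.58.1 (R 4.3.3, moderated with a trend), in 1 fit of 4 groups, with Benjamini-Hochberg adjustment over all tested genes and a threshold of 0.05. The contrasts were siMCRS1 against NTG in EPZ-6438, the same in DMSO, and their difference. Alternatives were 2 pseudocounts (0.1 and 5), 3 filters, 3 scalings, the 5 EPZ-6438 libraries alone, no trend, edgeR 4.0.16, DESeq2 1.42.0 and each library left out in turn. Scripts were tested on simulated data. Counting intervals and the floor of 3 reads cover counting error only.

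The members and the 54 gene lists were chosen with earlier results of these data known. Named genes were MCRS1, the 10 largest called changes in each direction with a mean of at least 50 and groups apart, key genes of each list, the 3 largest called changes of a list in each direction, any member of a list with at most 30 tested genes, and the 5 lowest p-values for the difference between drug and solvent. ASL, FGFR4 and HIF1A were named after their values were seen. Aliases were matched for CCN2 (CTGF) and G6PC1 (G6PC). Use of strand in counting is not given in the sources used here, so reads of overlapping genes cannot be told apart. The labels give replicate letters, which the columns of siMCRS1 in EPZ-6438 carry, while the other columns carry numbers, so that libraries were not paired in the main test. A few genes are not reported here.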

Additional observations from a re-analysis of the deposited data

How the results depend on the processing

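The knockdown of MCRS1 kept its direction and its call under every alternative run. The number of genes that rose was 3839, and 2296 under equal totals, where 5313 fell. With each library left out it ranged from 2475 (without siMCRS1 B) to 3767, and the number that fell from 2585 to 3640. edgeR gave 3699 and 4023, and DESeq2 3913 and 3903. The 6830 genes changed in DMSO stayed within 1.5 times under every alternative run. The number of genes whose effect differed between drug and solvent was 0, and was 5 in DESeq2 and 0 to 3 with a library left out. Over 108 counts of list members, 1750 of 1944 recomputed values stayed within 1.5 times and 194 did not. Of the 3495 recomputed values of the 195 genes named, 3372 kept direction and side of the threshold, 52 lost the call and 22 gained it. Another 48 changed sign with no call in either fit. With a call 1 reversed, that of ID1 at -0.26 under quantile normalization. The cause of these shifts was not tested.

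The siMCRS1 columns of EPZ-6438 carry letters and the other columns numbers, so a fit with a replicate block, in which A was assumed to be 1 and B to be 2, was added after seeing the data. With the block 4545 genes rose and 4531 fell in EPZ-6438, and 1 gene differed between drug and solvent. Libraries of the same number had a mean correlation of deviations of 0.20 (-0.017 to 0.303, above 0.1 in 11 of 12 pairs), and those of other numbers of -0.096 (25 pairs). Deviations are taken from the group mean, so in a group of 2 libraries they mirror each other. NTG 1 and NTG 3 of DMSO thus had 0.303 and -0.303 with siMCRS1 1 of DMSO. The pairs are therefore not independent, and the negative mean follows in part from the positive one. The same-number values are at most a hint of pairing from the data, not from the design. The third principal component of the 10 libraries (7.13% of the variance) was positive for library 1 or A of each group (16.5 to 27.8). It was negative for every other library (-22.0 to -1.30). The labels letter the DMSO NTG replicates A and C, where the columns are 1 and 3. No label states a pairing, and A as 1 and B as 2 is assumed, so the block was not used in the main test. Any effect shared by libraries of the same number thus stays in the SEs of that test. With 5 libraries the median SE of 0.16 limits which changes can be called.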

Other observations

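Metal handling moved in both directions with siMCRS1 in EPZ-6438. Of 17 iron genes 5 rose and 4 fell (1 without NTG 1, NTG 3 or siMCRS1 B). TFRC, the transferrin receptor, had 18223, 17700 and 18374 normalized counts in NTG and 33992 and 38862 in siMCRS1 (1.01, SE 0.11, adjusted p = 3.6e-05 from limma), and HFE, which binds that receptor, fell by 1.94 (SE 0.19, adjusted p = 2.1e-05). Of 14 metallothioneins and zinc transporters 5 rose and 3 fell (1 without siMCRS1 B), or 4 and 5 under equal totals. SLC39A5, a zinc importer, had 1202, 1101 and 1200 against 227 and 108 (-2.89, SE 0.37, adjusted p = 0.00011). Of 28 genes of amino acid sensing and mTORC1, 11 rose and 8 fell (5 and 5 without siMCRS1 B), or 4 and 10 under equal totals. TSC2, which restrains mTORC1, had 875, 1113 and 1023 against 446 and 296 (-1.46, SE 0.19, adjusted p = 0.00011). These lists have medians between 0.08 and 0.29, which differ little from the 0.01 of all genes and are -0.16 to 0.06 under equal totals.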
